A study of Mus musculus with 36 samples.

Results

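The cell-cycle genes Ccnd2, Ccnd3, Cdk4, Cdk6, Ccne1, Cdkn1a, Cdkn1b, Cdkn2a, Cdkn2c and Cdkn2d were examined through the DNase hypersensitive sites (DHS) at and around them in B3, a mouse pre-B cell line. All DHS that overlapped the GENCODE vM21 body of one of these 10 genes, extended by 10 kb on each side, were taken, which gave 51 of the 52788 DHS measured. DNase-seq sequences the DNA that DNase I releases from open chromatin, so a higher value means more accessible chromatin and not more RNA. In bulk cells, fewer cells with an open site and weaker opening in every cell cannot be told apart. The values are log2 of normalised read density, and all differences are on that log2 scale.

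Accessibility was measured in 36 libraries, with 3 replicates in each of 12 groups formed by 2 lines and 6 times (0, 2, 6, 12, 18 and 24 h). The Ikaros line carried a retroviral MSCV vector for HA-Ikaros-ERt2 followed by IRES and GFP, in which the hormone-binding domain ERt2 keeps the transcription factor Ikaros inactive until 4-hydroxytamoxifen (4-OHT) is given. The control line carried the vector with ERt2 alone. Per the labels all groups received 4-OHT at 0.5 µM, whereas the study's methods state that 0 h cells got none and were collected apart from the other times, so in every value against 0 h, time cannot be told apart from separate collection. Each line was a pool of GFP-sorted cells and not a single clone, and the replicates, numbered 4, 5 and 6, were batches of the same lines. The authors had removed systematic noise from the values. The p-values therefore measure the spread left between batches of these lines after that correction, in one estimate shared by the 12 groups.

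D-type cyclins (Ccnd2, Ccnd3) bind the kinases Cdk4 and Cdk6 in G1 and start the phosphorylation of the retinoblastoma protein, which E-type cyclins (Ccne1) with Cdk2 complete before S phase. Ink4 inhibitors (p16 from Cdkn2a, p18 from Cdkn2c, p19 from Cdkn2d) bind Cdk4 and Cdk6, while Cip/Kip inhibitors (p21 from Cdkn1a, p27 from Cdkn1b) act on cyclin-bound kinases. In large cycling pre-B cells the D cyclins drive expansion, and Ikaros is known for ending it.

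The DHS were numbered within each gene from the lowest coordinate upwards. Starts were those of the GENCODE basic set. Of the 51, 14 lay within 1000 bp of such a start of the member gene itself (its promoter DHS) and 7 at a start of another gene in the window. A further 22 lay in the body of the member gene, 3 in the body of another gene and 5 between genes. Ccnd2_4 and Cdk6_1 are not among the 14, although both lay within 1000 bp of the outermost start of their gene in the full annotation. Cdk6 had 14 DHS in a window of 209.5 kb, Ccnd3 11, Ccnd2 and Cdk4 5 each, Cdkn1a, Cdkn2a and Cdkn2c 4 each, Cdkn1b 3 and Ccne1 1. Cdkn2d had 0 DHS in its window of 23.0 kb, so nothing is reported for it beyond that count. The member DHS were accessible relative to the table, with a median level over the 36 libraries of 4.62 against 3.95 for all DHS and 4.57 for all 13657 promoter DHS. Their median GC content was 55.7%, against 50% and 59.0%. Their widths had the same median as all DHS, 500 bp, and 22 of 51 were at most 200 bp wide.

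The sequences of the 8 DHS on which the results below turn are shown here, each as the stretch of at most 200 bases of the DHS that holds no annotated untranslated region, on the plus strand of GRCm38. Capitals mark matches on either strand to the letters searched, which were TGGGAA (the Ikaros core), CACGTG (an E-box bound by Myc), TTTGGCGC, TTTCGCGC, TTTGGCGG and TTTCCCGC (E2F) and GTAAACA (Foxo).
Ccnd2_3, promoter of Ccnd2, chr6:127151061-127151110: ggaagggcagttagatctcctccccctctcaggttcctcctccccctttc
Ccnd2_5, upstream of Ccnd2, chr6:127154967-127155131: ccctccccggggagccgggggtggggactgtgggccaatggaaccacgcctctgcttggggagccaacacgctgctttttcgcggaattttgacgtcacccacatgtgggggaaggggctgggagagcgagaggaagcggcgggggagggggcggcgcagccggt
Ccnd3_9, promoter of Ccnd3, chr17:47593163-47593362: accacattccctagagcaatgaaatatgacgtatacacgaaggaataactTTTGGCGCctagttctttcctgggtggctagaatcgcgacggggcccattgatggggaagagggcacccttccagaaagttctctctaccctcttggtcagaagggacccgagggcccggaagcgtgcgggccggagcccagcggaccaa
Cdk4_2, promoter of Cdk4, chr10:127063218-127063417: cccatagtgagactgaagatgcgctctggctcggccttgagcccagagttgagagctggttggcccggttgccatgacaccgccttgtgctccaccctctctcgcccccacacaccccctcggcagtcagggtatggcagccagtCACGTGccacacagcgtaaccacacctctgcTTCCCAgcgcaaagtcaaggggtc
Ccne1_1, promoter of Ccne1, chr7:38107616-38107815: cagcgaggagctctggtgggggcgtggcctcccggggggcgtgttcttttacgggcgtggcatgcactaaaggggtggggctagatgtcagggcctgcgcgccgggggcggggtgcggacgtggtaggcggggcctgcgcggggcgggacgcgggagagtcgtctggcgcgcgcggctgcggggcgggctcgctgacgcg
Cdkn1a_3, promoter of Cdkn1a, chr17:29093607-29093768: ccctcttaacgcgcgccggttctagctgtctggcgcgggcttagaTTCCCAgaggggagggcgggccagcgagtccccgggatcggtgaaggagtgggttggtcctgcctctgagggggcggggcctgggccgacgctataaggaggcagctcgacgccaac
Cdkn1a_4, body of Cdkn1a, chr17:29095526-29095725: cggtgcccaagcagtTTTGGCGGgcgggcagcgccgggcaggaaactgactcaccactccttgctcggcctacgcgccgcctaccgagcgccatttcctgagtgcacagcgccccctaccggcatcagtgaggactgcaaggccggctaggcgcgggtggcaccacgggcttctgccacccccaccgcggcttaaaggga
Cdkn1b_3, promoter of Lockd downstream of Cdkn1b, chr6:134928537-134928736: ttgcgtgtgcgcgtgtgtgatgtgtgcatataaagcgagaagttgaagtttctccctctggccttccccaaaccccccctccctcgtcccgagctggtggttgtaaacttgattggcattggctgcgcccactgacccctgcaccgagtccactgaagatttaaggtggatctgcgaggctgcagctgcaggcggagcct

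The stretch at Cdk4 held an E-box and an Ikaros core, that of Cdkn1a_3 an Ikaros core, and those of Cdkn1a_4 and Ccnd3_9 an E2F match. Those of Ccnd2_3, Ccnd2_5, Ccne1_1 and Cdkn1b_3 held none of the letters. In windows of 200 bp about the centre of each DHS, the Ikaros core was found in 11 of 51 member DHS (21.6%), against 17.2% of all DHS. The E-box was found in 5 (9.8%, against 5.15%), an E2F match in 2 (3.92%, against 1.3%) and the Foxo letters in 1 (1.96%, against 2.3%). Among all promoter DHS the shares were 15.4% for the Ikaros core, 8.47% for the E-box, 3.01% for E2F and 1.76% for Foxo. Of the 14 promoter DHS of the member genes, 5, 2, 0 and 0 held them in turn. The windows of 200 bp differ from the stretches printed above, and a match is a description of the letters and not of binding.

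B-lineage identity was checked on promoter DHS. The B-lineage genes Cd79a, Cd79b, Pax5, Ebf1, Vpreb1, Igll1 and Blnk had one (mean levels 4.88 to 5.99), while 1 of 5 T-cell genes (Lck, 4.24), 1 of 5 myeloid genes (Lyz2, 3.29) and 1 of 3 erythroid genes (Klf1, 4.58) had one, and Cd3e, Csf1r and Gata1 had none. Among 4 other genes only Col1a1 had one, at 3.96. Library medians over all DHS lay between 3.90 and 4.11.

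The question at 0 h was whether the lines already differed before induction. They did at 10 of 51 member DHS, all more accessible in the Ikaros line, in the limma test with Benjamini-Hochberg adjustment over all 52788 DHS, where 12.9% of all DHS were called and 7.81% were called higher. The 10 covered D cyclins (Ccnd2_4, Ccnd2_5, Ccnd3_9, Ccnd3_10), both kinases (Cdk4_2, Cdk6_10), Ccne1_1, and inhibitor loci (Cdkn1a_4, Cdkn1b_2 and Cdkn2c_4, the last at the start of the neighbouring gene Faf1), and no DHS in the body or at a start of Cdkn2a or Cdkn2c themselves. The median difference was 0.40 over the 51 members (0.27 after quantile normalization and 0.22 with level, width and GC trends removed) and 0.56 over the 14 promoter DHS, with 5 of 14 called. Promoter DHS in general were higher, with a median of 0.34 and 26.0% called, against -0.19 for DHS outside promoters. In 17 members all 3 Ikaros values lay above all 3 control values (12.4% of all DHS did so), and in 3 they lay below (11.2%).

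Promoters as a class moved with this result. The median of all promoter DHS minus that of all other DHS was 1.00, 0.997 and 1.11 in the Ikaros 0 h libraries and 0.446, 0.692 and 0.339 in the control 0 h libraries, with the 30 libraries from 2 h on between 0.425 and 1.03. The lowest value belonged to control 0 h replicate 6, and without that library 3 members were called in place of 10. After each library was freed of its trend with level, width and GC content, 2 members were called (Cdk6_10 and Cdkn1a_4), and 0 in a fit of the 0 h libraries alone, where 2 of all DHS were called. The part of the promoter-wide shift in the member values was not tested beyond these fits.

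**Figure D1:**
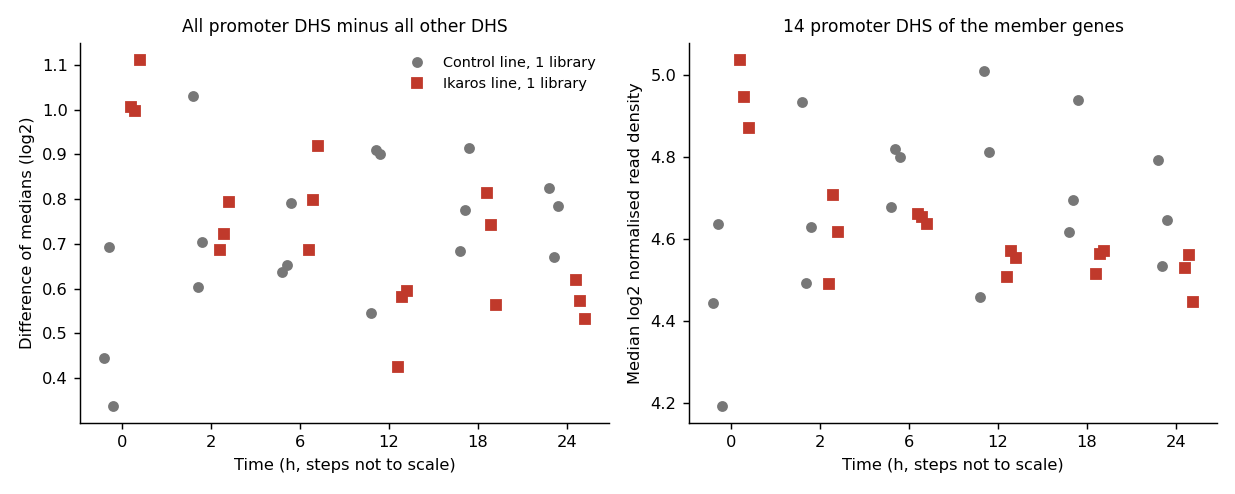
Left, the median log2 value of all promoter DHS minus that of all other DHS; right, the median log2 level of the 14 promoter DHS of the member genes; each point is 1 library (circles control line, squares Ikaros line) by time in h. At 0 h the 3 Ikaros libraries stand above the 3 control libraries in both panels (right, 4.87 to 5.04 against 4.19 to 4.64), and at 24 h the right panel has them between 4.45 and 4.56 against 4.53 to 4.79 in control cells.

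Ccnd2 encodes cyclin D2, a G1 cyclin induced by mitogenic signals. Its promoter DHS Ccnd2_3 (chr6:127150980-127151110, minus-strand gene, mean level 5.38) was the only member called between the lines at a single time after 0 h. With only the 24 h groups fitted, or with level, width and GC trends removed, it was not called at 24 h (adjusted p = 0.0537 and 0.0949) and Cdkn1a_3 was the 1 member called in its place. At 24 h its values were 5.02, 4.67 and 4.85 in Ikaros cells and 5.44, 5.62 and 6.19 in control cells, and at 0 h they were 5.46, 5.67 and 5.62 against 5.73, 5.28 and 5.23. The lines overlapped at 0 h and did not at 24 h, where the Ikaros values were the lower ones. The difference was 0.17 ± 0.21 at 0 h, -0.84 ± 0.21 at 12 h (adjusted p = 0.0417) and -0.90 ± 0.21 at 24 h (adjusted p = 0.0287, all errors of differences SE from the fit, n = 3 libraries per group). At 2, 6 and 18 h it was -0.29, -0.69 and -0.67 in turn. At 12 h and at 24 h 1 of 51 members was called, with 1.31% and 1.33% of all DHS.

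Within the Ikaros line Ccnd2_3 fell by 0.74 from 0 h to 24 h (adjusted p = 0.0227), and the difference between the lines changed by -1.07 ± 0.30 (adjusted p = 0.0336). In control cells the same step was 0.34 ± 0.21 (adjusted p = 0.731). Averaged over the 5 times from 2 h, a contrast chosen after seeing the data, the difference was -0.68 ± 0.10 with the Ikaros mean lower at 5 of 5 times (adjusted p = 5.7e-06). That contrast called 29.5% of all DHS, 12.4% as lower. The 12 group means span 6 of 11 possible dimensions after the noise correction, so the 5 times are not 5 independent comparisons. The calls of Ccnd2_3 at single times, in the change and in the fall rested on single libraries. At 24 h the call was lost without any one of control replicates 5 and 6 and Ikaros replicates 4, 5 and 6 (differences -0.99 to -0.68, adjusted p = 0.0557 to 0.164), and at 12 h without any one of the same 5 replicates (-0.91 to -0.70, adjusted p = 0.0823 to 0.211) and with the replicate block (adjusted p = 0.0532). The change was lost without control 0 h replicate 6, control 24 h replicate 6, Ikaros 0 h replicate 5 or Ikaros 24 h replicate 5 or 6 (-1.07 to -0.85, adjusted p = 0.0526 to 0.0921), and the fall within the Ikaros line without replicate 5 or 6 of either time (-0.74 to -0.65, adjusted p = 0.0506 to 0.0963).

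**Figure D2:**
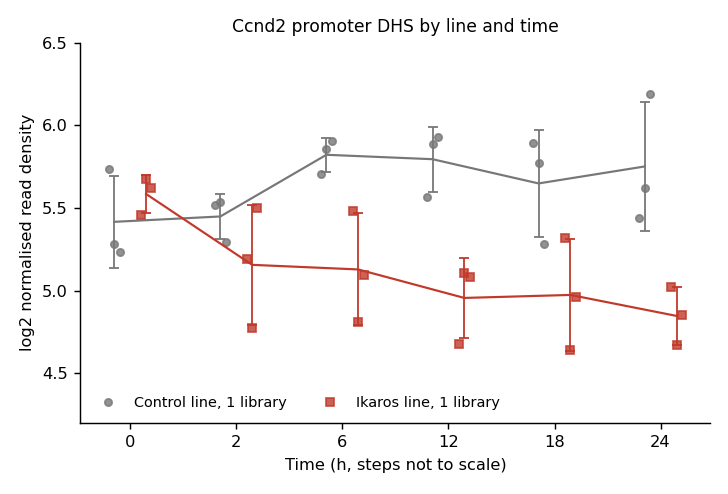
Log2 normalised read density of the Ccnd2 promoter DHS (Ccnd2_3) by time in h; points are single libraries, lines join group means and bars are ± 1 SD (n = 3). The lines overlap at 0 h (means 5.42 control, 5.58 Ikaros) and the means part to 5.75 in control and 4.85 in Ikaros cells at 24 h.

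Upstream of Ccnd2_3, 2 DHS were called at 0 h. Ccnd2_5 (chr6:127154967-127155131), in an intron of the noncoding gene 9330179D12Rik with its centre at -2856 bp from the outermost Ccnd2 start of the full annotation, had the highest mean of the locus (5.43). At 0 h its values were 6.57, 5.78 and 6.00 in Ikaros and 5.58, 4.92 and 4.73 in control cells, a difference of 1.04 ± 0.28 (adjusted p = 0.0144). At 24 h they were 5.21, 4.93 and 4.72 against 5.72, 5.52 and 5.56, so the lines had changed order without overlap at either time. The change of the line difference was -1.69 ± 0.40 (adjusted p = 0.0163), and the Ikaros line itself fell by 1.16 (adjusted p = 0.00845). The 24 h difference of -0.65 did not pass (adjusted p = 0.263).

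Ccnd2_4 (chr6:127152381-127152847) lay in the same noncoding gene and within 1000 bp of the outermost Ccnd2 start of the full annotation. It was 0.86 ± 0.24 higher in Ikaros cells at 0 h (adjusted p = 0.018) and 0.17 higher at 24 h. The DHS in the introns of Ccnd2, Ccnd2_1 and Ccnd2_2, passed no single-time test, with differences at 24 h of -0.24 and -0.28. Leaving out control 0 h replicate 6 ended the 0 h calls of Ccnd2_4 (adjusted p = 0.132) and Ccnd2_5 (adjusted p = 0.0973), as did leaving out Ikaros 0 h replicate 5 for the former (adjusted p = 0.0528) and replicate 4 for the latter (adjusted p = 0.0873). The change of Ccnd2_5 was not called without control 0 h replicate 6 (-1.52, adjusted p = 0.0501), nor its fall in the Ikaros line without Ikaros 0 h replicate 4 (-0.94, adjusted p = 0.0549).

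Ccnd3 encodes cyclin D3, which pre-B cells need for their expansion. Its 11 DHS span the long annotated gene and include 3 promoter DHS at internal starts. Ccnd3_9 (chr17:47593056-47593691, mean 4.78) had values of 5.17, 5.02 and 5.20 in Ikaros and 4.39, 4.72 and 3.72 in control cells at 0 h, and of 4.57, 4.84 and 4.77 against 4.89, 4.76 and 4.62 at 24 h. The lines were apart at 0 h (0.86 ± 0.19, adjusted p = 0.00422) and overlapped at 24 h (-0.03 ± 0.19). The change of -0.89 ± 0.27 was at the edge of the threshold (adjusted p = 0.0448, 0.0552 with the replicate block) and was lost without any one of 10 of 12 libraries, the exceptions being control and Ikaros 0 h replicate 5 (-0.96 to -0.61, adjusted p = 0.053 to 0.152). Its 0 h call was lost without control 0 h replicate 6 (0.58, adjusted p = 0.0599).

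Ccnd3_10 (chr17:47595610-47595740) was 0.87 ± 0.28 higher at 0 h (adjusted p = 0.0396) and fell by 0.83 in the Ikaros line (adjusted p = 0.0494), and each call was lost on leaving out single libraries (4 of 6 at 0 h, adjusted p = 0.0568 to 0.18, the exceptions being control replicate 5 and Ikaros replicate 4; 6 of 6 for the fall, adjusted p = 0.0601 to 0.174). The third promoter DHS, Ccnd3_11 (chr17:47595954-47596084), had group means between 4.31 (Ikaros 24 h) and 5.19 (control 6 h). The highest DHS of the locus was Ccnd3_2 (chr17:47507905-47508452, mean 5.66), in an intron, with group means between 5.35 (Ikaros 12 h) and 6.03 (control 2 h). The intronic Ccnd3_4 (chr17:47521492-47522017) fell by 0.71 in the Ikaros line (adjusted p = 0.0276), from 5.00, 4.80 and 5.18 at 0 h to 4.47, 4.23 and 4.17 at 24 h, and that call was lost without Ikaros 0 h replicate 4 or 6 or Ikaros 24 h replicate 5 or 6 (adjusted p = 0.0664 to 0.0894).

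Cdk4 encodes a kinase partner of the D cyclins, and its promoter DHS Cdk4_2 (chr10:127063103-127063672) was the member with the highest mean level (5.74, above 98.4% of all DHS). At 0 h the Ikaros values of 6.55, 6.14 and 6.18 lay above the control values of 5.53, 5.36 and 5.08, and at 24 h the lines overlapped, with 5.58, 5.57 and 5.51 against 5.64, 5.57 and 5.92. The difference went from 0.97 ± 0.18 (adjusted p = 0.00131) to -0.16 ± 0.18, a change of -1.13 ± 0.26 (adjusted p = 0.0144) that was kept without any one library and lost without replicate 5 or 6 in all groups. With level, width and GC trends removed the 0 h difference was 0.38 (adjusted p = 0.0664) and the change -0.22 (adjusted p = 0.539). The Ikaros line fell by 0.74 (adjusted p = 0.00999, and 0.0581 without Ikaros 0 h replicate 4), and the F-test of condition by time passed (adjusted p = 0.044). The other 4 DHS around Cdk4 were called at no single time, in no change and in no F-test. One of them, Cdk4_1 in an exon of March9, had a negative difference at 6 of 6 times (-0.68 to -0.30).

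Cdk6 encodes the second G1 kinase and had 0 promoter DHS that were called. Its promoter DHS by the basic set were Cdk6_2 (chr5:3343846-3343976) and Cdk6_3 (chr5:3344442-3344605, mean 4.63). Cdk6_1, within 1000 bp of the outermost start of the full annotation, was placed in the body. In Cdk6_3 the Ikaros minus control difference was -0.21 ± 0.31 at 0 h and -0.18 ± 0.31 at 24 h, with a change of 0.03 ± 0.44, all far from the threshold (adjusted p = 0.696, 0.855 and 0.97). Group means of Cdk6_2 lay between 4.01 (control 0 h) and 4.59 (Ikaros 0 h). The highest DHS of the locus was Cdk6_11 (chr5:3501560-3502090, mean 5.08), far inside the gene. Apart from the average of 2 h to 24 h, the only call was Cdk6_10 (chr5:3497452-3497964), also in the body, with 5.44, 5.35 and 5.27 in Ikaros and 4.86, 4.34 and 4.40 in control cells at 0 h (0.82 ± 0.21, adjusted p = 0.0119). It was lost without control 0 h replicate 6 (0.76, adjusted p = 0.0652).

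Ccne1 encodes cyclin E1, which acts at the G1/S boundary, and a single DHS, Ccne1_1 (chr7:38107378-38107897, minus-strand gene, GC content 76.5%), covers its start. It had the largest 0 h difference of the 51 members, 1.48 ± 0.22 (adjusted p = 0.000257), with 6.00, 5.22 and 5.41 in Ikaros cells above 4.16, 4.38 and 3.66 in control cells. By 24 h the values of 4.86, 4.94 and 4.70 overlapped those of the control line, 4.81, 4.58 and 4.83 (0.09 ± 0.22). The change was -1.38 ± 0.32 (adjusted p = 0.0146), lost without replicate 4, 5 or 6 throughout but not without any one library, and the F-test of condition by time passed (adjusted p = 0.0371). From 0 h to 24 h it changed by -0.71 ± 0.22 in Ikaros cells (adjusted p = 0.0359), and the difference of 0.67 ± 0.22 in control cells did not pass (adjusted p = 0.662). The Ikaros fall was lost without Ikaros 0 h replicate 4 or any one of the 3 Ikaros 24 h libraries (adjusted p = 0.0684 to 0.203). With level, width and GC trends removed, the 0 h difference was 0.31 (adjusted p = 0.212) and the change -0.12 (adjusted p = 0.811).

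Among the inhibitors, Cdkn1a, which encodes p21, held the largest called changes. The promoter DHS Cdkn1a_3 (chr17:29093607-29093795, mean 5.73, also at a start of AC167363.2) had 6.35, 6.18 and 6.29 in Ikaros and 5.79, 5.65 and 5.15 in control cells at 0 h. At 24 h it had 5.32, 5.12 and 5.29 against 5.93, 6.20 and 5.98. The lines thus changed order with no overlap at either time, although neither single time passed (0.74 ± 0.26, adjusted p = 0.0553, and -0.79 ± 0.26, adjusted p = 0.121). With trends removed the 0 h difference was -0.01. The 24 h difference passed with only those groups fitted (adjusted p = 0.0373), with trends removed (-0.63, adjusted p = 0.0496) and with a spread per group (adjusted p = 0.0205). The change of -1.53 ± 0.37 passed (adjusted p = 0.0178, and 0.0558 without control 0 h replicate 6), as did the fall of 1.03 within the Ikaros line (adjusted p = 0.0113), which was kept without any one of the 6 libraries and lost without replicate 5 or 6 throughout, as the change was.

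Cdkn1a_4 (chr17:29095372-29095880), in the body of Cdkn1a at a start of AC167363.2, had the lowest adjusted p of the members in the change of the line difference. Its values fell in the Ikaros line from 6.28, 6.07 and 5.97 at 0 h to 5.30, 5.26 and 5.19 at 24 h, while the control line had 5.22, 5.36 and 5.11 and then 5.53, 5.56 and 5.64. The Ikaros mean was 5.52 by 2 h, so most of the fall lay between the 0 h and the 2 h collections. The change of the line difference was -1.20 ± 0.23 (adjusted p = 0.00688), the fall in the Ikaros line 0.86 (adjusted p = 0.00176), and both the F-test of condition by time (adjusted p = 0.0203) and that of time within the Ikaros line (adjusted p = 0.012) passed. The change and the fall were kept without any one library, but without replicate 5 in all groups both were lost (adjusted p = 0.0591 and 0.0555), and the change also without replicate 6. At 0 h the difference was 0.87 ± 0.16 (adjusted p = 0.00105). The DHS upstream, Cdkn1a_1 and Cdkn1a_2, were called at no single time, in no change and in no F-test.

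**Figure D3:**
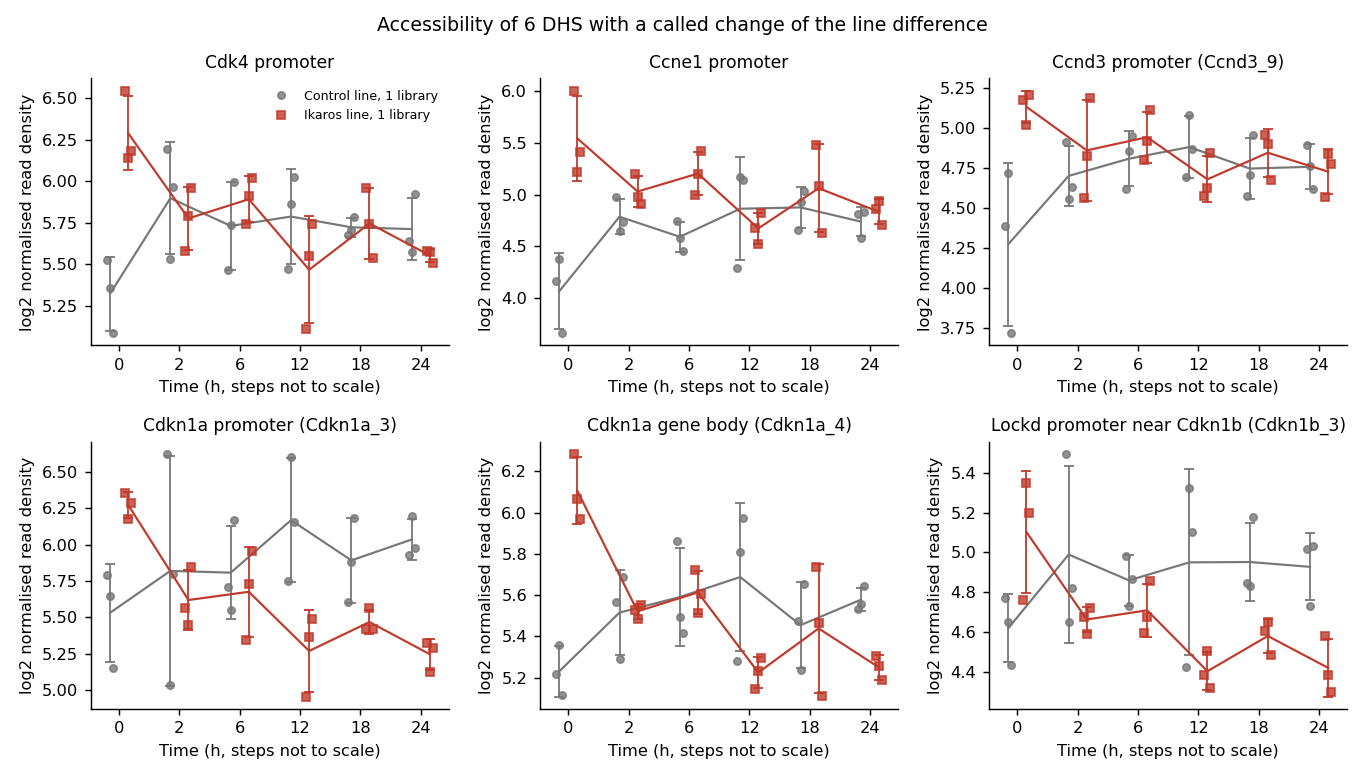
Log2 normalised read density of 6 DHS by time in h, with its own vertical axis in each panel that does not start at 0; points are single libraries, lines join group means and bars are ± 1 SD (n = 3). At Cdk4, Ccne1 and Ccnd3_9 the lines are apart at 0 h and overlap at 24 h, and at Cdkn1a_3 and Cdkn1a_4 the order of the lines is reversed at 24 h (Cdkn1a_3 means 5.25 Ikaros, 6.04 control).

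Cdkn1b encodes p27. Its promoter DHS Cdkn1b_2 (chr6:134920106-134920761, mean 4.15) had 4.74, 4.74 and 4.43 in Ikaros and 3.81, 4.21 and 3.35 in control cells at 0 h (0.84 ± 0.22, adjusted p = 0.0118, and 0.111 without control 0 h replicate 6), and the lines overlapped at 24 h (-0.02 ± 0.22). The change of -0.86 ± 0.31 did not pass (adjusted p = 0.0819). The downstream DHS at the start of the noncoding gene Lockd, Cdkn1b_3 (chr6:134928285-134928989, mean 4.76), was the highest of the locus. It went from 4.76, 5.35 and 5.20 to 4.58, 4.38 and 4.30 in the Ikaros line and from 4.77, 4.65 and 4.43 to 5.02, 4.73 and 5.03 in the control line, a change of -0.99 ± 0.28 (adjusted p = 0.0343) with a fall of 0.68 in the Ikaros line (adjusted p = 0.0232). The change was lost without any one of 7 of 12 libraries (control 0 h replicate 6, control 24 h replicates 4 and 6, and replicates 5 and 6 of Ikaros 0 h and 24 h, adjusted p = 0.0554 to 0.0909), and the fall without any one of the last 4 (adjusted p = 0.0622 to 0.0954).

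No promoter DHS of the Ink4 genes Cdkn2a and Cdkn2c was called at any single time. Cdkn2a, which encodes p16 and, from another start, p19Arf, had its higher promoter DHS at Cdkn2a_2 (chr4:89282023-89282568, mean 4.50), with 4.27, 4.26 and 3.87 in Ikaros below 4.78, 4.37 and 4.98 in control cells at 24 h (-0.57 ± 0.20, adjusted p = 0.136) and a change of -0.85 ± 0.28 (adjusted p = 0.0581). At 0 h its difference was 0.28 ± 0.20. Cdkn2a_4 (chr4:89295237-89295367) was low, at a mean of 3.34, with single libraries from 1.57 to 4.22. Cdkn2c, which encodes p18, had Cdkn2c_2 (chr4:109665253-109665389, mean 4.67, differences of 0.19 ± 0.27 at 0 h and -0.05 ± 0.27 at 24 h) and Cdkn2c_3 (chr4:109666480-109667162, group means 4.01 to 4.62). The highest DHS of that window, Cdkn2c_4 (chr4:109676282-109676820, mean 5.36), belongs to the Faf1 start and was 0.59 ± 0.18 higher at 0 h (adjusted p = 0.0325), although the groups overlapped and the difference was -0.34 with trends removed. That call was lost without control replicate 4 or 6 or Ikaros replicate 5 or 6 (adjusted p = 0.0915 to 0.18).

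At single times the members were called at 0 h, and after it only Ccnd2_3 was, at 12 h and 24 h. At 2 h, 6 h and 18 h 0 of 51 passed in the limma test (6, 5 and 5 had an unadjusted p under 0.05), with 0.195%, 0.578% and 0.699% of all DHS called. In the change of the line difference from 0 h to 24 h, 8 of 51 were called, all falls. Of all DHS 6.26% were called and 3.4% as falls, and of all promoter DHS 10.1% as falls. The member median was -0.57, against -0.42 for all promoter DHS and 0.12 for all DHS. The count of 8 called members became 3 without control 0 h replicate 6, 2 in a fit of these 4 groups alone (Cdkn1a_3 and Cdkn1a_4, each at an adjusted p of 0.0492), 5 after quantile normalization and 0 with level, width and GC trends removed, where the median was -0.28 and 38 of 51 were negative. The 8 changes lay between -1.69 and -0.89 as reported and between -0.84 and -0.12 with trends removed. From 2 h to 24 h the same change was called at 0 of 51 members and 0% of all DHS, with 0 members at an unadjusted p under 0.05. Within the Ikaros line 9 of 51 fell from 0 h to 24 h and none rose (12.6% of all DHS called, 5.14% as falls, and 11.9% of all promoter DHS as falls). With trends removed 4 fell and 1 rose. Within the control line 0 members and 0% of all DHS were called and 5 members had an unadjusted p under 0.05. The F-test of condition by time called 3 members (1.1% of all DHS), that of time in the Ikaros line 1 (2.29%) and that in the control line 0 (0.148%, 5 members with an unadjusted p under 0.05). Without replicate 4, 5 or 6 in all groups the F-tests called 0 members, and with the replicate block that of condition by time called 1. The F-tests restricted to times from 2 h on, added after seeing the data, called 0 members.

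At 24 h the members leaned to lower values in the Ikaros line. The median difference was -0.16, with 37 of 51 negative, against 0.06 over all DHS and -0.05 over all promoter DHS. With trends removed the median was -0.02, with 29 of 51 negative. In 12 members all 3 Ikaros values lay below all 3 control values (10.4% of all DHS did so) and in 0 above (15.1%). These 12 were Ccnd2_3, Ccnd2_5, Ccnd3_2, Ccnd3_3, Ccnd3_6, Ccnd3_11, Cdk4_1, Cdkn1a_2, Cdkn1a_3, Cdkn1a_4, Cdkn1b_3 and Cdkn2a_2. Averaged over 2 h to 24 h, 19 of 51 members were called (29.5% of all DHS), 15 lower (12.4% of all DHS and 16.0% of all promoter DHS) and 4 higher in Ikaros cells. The 15 were 4 of the 5 Ccnd2 DHS (Ccnd2_4 excepted), 5 of the 11 Ccnd3 DHS (Ccnd3_2, Ccnd3_3, Ccnd3_4, Ccnd3_6 and Ccnd3_11), Cdk4_1, Cdk6_9, Cdkn1a_2, Cdkn1a_3, Cdkn1b_3 and Cdkn2a_2, and the 4 higher ones were Cdk6_1, Cdk6_4, Cdk6_11 and Cdkn2c_3.

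**Figure D4:**
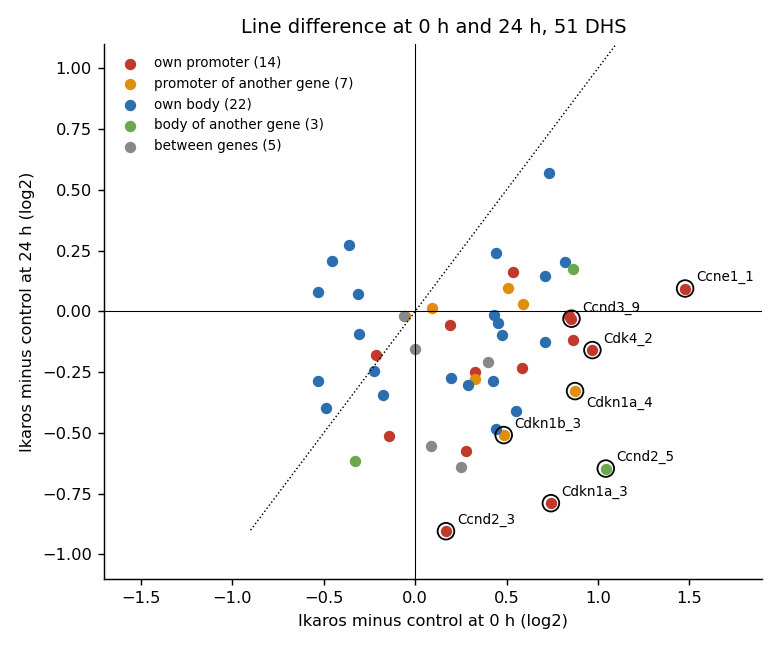
Each point is 1 of the 51 DHS, with the Ikaros minus control difference (log2) at 0 h on the horizontal and at 24 h on the vertical axis, coloured by position; the dotted line marks equal differences and black rings mark the 8 DHS with a called change. All 8 lie below the dotted line, with Ccnd2_3 the only one near 0 on the horizontal axis (0.17) and Ccne1_1 farthest to the right (1.48).

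The wider cell-cycle machinery was read from the promoter DHS of 40 further genes, of which 36 had one, 48 DHS in all. At 0 h 14 of 48 were called, all higher in Ikaros cells, while 26.0% of all promoter DHS were called and 24.8% were called higher. The 14 were promoters of members of the Rb family and its E2F partners (Rb1 1.07, Rbl1 0.81, E2f1 0.86, E2f3 1.58, E2f5 0.53, E2f7 0.82, Tfdp1 1.27), of the cyclin Ccne2 (0.72), of the Ink4 gene Cdkn2b (0.65), of the inhibitory kinases Wee1 (0.91) and Pkmyt1 (0.88), of the ubiquitin ligase adaptors Fbxw7 (0.77) and Fzr1 (0.75), and of Lin54 (0.66). The promoter DHS of Rbl2, E2f2, E2f4, E2f8 and Tfdp2, of the same families, were not called at 0 h. Rbl1, E2f1, E2f3, Pkmyt1 and Lin54 had 2 promoter DHS each, of which only 1 was called at 0 h. Values given for these genes here and below are those of that 1 DHS (for E2f3 the narrow chr13:29984405-29984491). From 2 h to 24 h 0 of 48 were called by limma at any time (3 to 8 had an unadjusted p under 0.05). The average over those times, added after seeing the data, called 11 of 48, 2 higher and 9 lower (27.4% of all promoter DHS were called, 16.0% as lower). In the change from 0 h to 24 h 8 of 48 were called, all falls, against 10.6% of all promoter DHS, at E2f3 (-1.66), Tfdp1 (-1.23), Rbl1 (-1.03), Ccne2 (-1.02), E2f1 (-0.89), Fbxw7 (-0.86), Cdk1 (-0.85) and Cdkn2b (-0.78). Within the Ikaros line 5 of 48 fell from 0 h to 24 h (E2f3 -1.36, Ccne2 -0.74, Cdk1 -0.70, Lin54 -0.68 and Rbl1 -0.66), against 11.9% of all promoter DHS. The F-test of time in the Ikaros line passed for 2 of 48, Cdk1 and E2f3, against 2.3% of all promoter DHS. Those of condition by time and of time in the control line called 0 of 48 (2.05% and 0.0513% of all promoter DHS). The directions of the calls in this list depended on the scaling. With level, width and GC trends removed, the 0 h counts were 0 higher and 2 lower, the change had 1 rise and 0 falls, and the Ikaros line 2 rises and 0 falls, while 2 were called higher at 24 h. After quantile normalization 13 were higher and 1 lower at 0 h, and the change had 2 falls. Without control 0 h replicate 6, 6 were called at 0 h and 1 in the change.

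The promoters of the member genes did not follow one course. Over the 36 pairs among the highest promoter DHS of 9 genes, Pearson's r over the 36 libraries ran from -0.603 to 0.773 with a median of 0.210. As a description over the same libraries, the promoter DHS on another chromosome most like each was that of Tnf for Ccnd2_3 (r = 0.842), Atraid and Slc5a6 for Ccnd3_9 (r = 0.892), Gm34220 and Yy1 for Cdk4_2 (r = 0.907), Rdh11 for Cdk6_3 (r = 0.689), Scaf11 for Ccne1_1 (r = 0.938), AU040320 and Ncdn for Cdkn1a_3 (r = 0.908), Anln for Cdkn1b_2 (r = 0.899), Lockd for Cdkn2a_2 (r = 0.868) and Gm26517 for Cdkn2c_2 (r = 0.607). The Lockd promoter is the DHS Cdkn1b_3 of the Cdkn1b window. The libraries share lines, batches and the noise correction, which fixes part of any such likeness.

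Replicates varied less in the induced Ikaros groups. The median SD over the 51 members was 0.147 to 0.197 in the 5 Ikaros groups from 2 h on and 0.233 to 0.340 in the 5 control groups, with 0.307 in the Ikaros line and 0.303 in the control line at 0 h. Over all DHS the median SD was likewise 0.199 to 0.216 in the same 5 Ikaros groups and 0.268 to 0.401 in the same 5 control groups. A fit with a spread for each group called 5 members at 24 h in place of 1 and 4 at 0 h in place of 10. The share of all DHS called in that fit is not given here, so these counts are not read as particular to the members.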

How the data were processed

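DNase-seq was made from 36 libraries of the B3 line, in 12 groups of line and time taken from the sample labels. According to its methods, the authors cut reads to 36 bp, aligned them to mm10 (Bowtie2), found peaks of both narrow and broad shape in each replicate (HOMER), merged them to 1 list of DHS, counted reads with bedtools, dropped low DHS, scaled to RPKM and TMM and removed noise with ARSyN. Versions are not given in the sources used here. The deposited values are these log2 densities. Base 2 was read from library sums of the values taken back from the log. Some Ikaros replicate 4 libraries were sequenced again, per the design text. No counts were at hand, so the depth is unknown and no counting intervals are given.

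ARSyN keeps the effects of the groups and takes out other structure, and the 12 group means span 6 of 11 possible dimensions, so the groups are not independent of each other and replicate spread can be narrower than in uncorrected data.

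DHS were matched to GENCODE vM21 basic genes on GRCm38, while the bodies of the member genes and their outermost starts came from the full annotation. It was not stated whether starts count from 0 or 1, so positions may be off by 1 bp. limma 3.58.1 in R 4.3.3 was fitted to all 52788 DHS with 12 group means, eBayes with an intensity trend and Benjamini-Hochberg adjustment over all DHS per contrast. A DHS was called at an adjusted p under 0.05, two-sided. The study's methods state no test for this table. The fit was also run on simulated independent noise with added differences, as a check of the code. That simulation had neither the noise correction nor the unequal group spreads of these data, so it does not bear on the calls reported here. The members and gene lists, including the 40 further cell-cycle genes and the cell type markers, were chosen with earlier results of these data known. Not every marker of these lists is reported here. DHS were named where they were called, were a promoter DHS of a member gene, or had the highest mean of their gene.

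Replicates 4, 5 and 6 are batches 11, 12 and 13 in the labels, so the numbers pair samples. The correlation of same-numbered deviations between the lines at one time lay between -0.175 and 0.183 (median -0.0153, over 0.1 in 3 of 18 pairs). Alternatives were a replicate block, the groups of a contrast alone, quantile normalization, removal of trends with level, width and GC content, log2 of the value plus 1, a stricter filter on low DHS (mean above the 0.25 quantile), a spread per group, eBayes without the trend and robust, other gene extensions, and leaving out each library or replicate.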

Additional observations from a re-analysis of the deposited data

Results flagged for a closer look

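At 8 member DHS the Ikaros minus control difference at 24 h differed from that at 0 h by limma's test of the difference itself, always downwards. The log2 changes were -1.07 at the Ccnd2 promoter (Ccnd2_3), -1.69 upstream of it (Ccnd2_5), -0.89 at the Ccnd3 promoter (Ccnd3_9), -1.13 at the Cdk4 promoter (Cdk4_2), -1.38 at the Ccne1 promoter (Ccne1_1), -1.53 at the Cdkn1a promoter (Cdkn1a_3), -1.20 in the Cdkn1a body (Cdkn1a_4) and -0.99 at the Lockd start beside Cdkn1b (Cdkn1b_3). All 8 share the 0 h libraries, and 0 of the 51 members were called in the same change counted from 2 h.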

How the results depend on the processing

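The counts of called members at 0 h, 10 as reported, were 0 with only the groups of the contrast fitted, 2 with trends removed, 4 with a spread per group and 3 to 11 on leaving out replicates or libraries. At 12 h the 1 call was lost (0) with only those groups, the replicate block, quantile normalization, trends removed or eBayes without the trend, and leaving out libraries gave 0 to 5. At 24 h the 1 call moved from Ccnd2_3 to Cdkn1a_3 with only those groups and with trends removed, 2 were called after quantile normalization, 5 with a spread per group, 19 in the average of 2 h to 24 h, and 0 to 1 on leaving out libraries. The 8 calls of the change became 2 with only those groups, 5 after quantile normalization, 0 with trends removed and 0 to 9 on leaving out libraries (3 without control 0 h replicate 6, 5 without control 24 h replicate 6 or Ikaros 24 h replicate 5 or 6). The 9 falls within the Ikaros line became 5 with only those groups, 5 calls with trends removed (4 falls and 1 rise) and 1 to 8 on leaving out libraries (4 without Ikaros 0 h replicate 4 or Ikaros 24 h replicate 5 or 6). The F-test of condition by time, with 3 calls, had 1 under the replicate block or eBayes without the trend, and 0 after quantile normalization, with trends removed, with a spread per group, from 2 h on and without replicate 4, 5 or 6. The F-test of time in Ikaros, with 1 call, had 7 with that line alone, and 0 with trends removed, from 2 h on and without replicate 4, 5 or 6. At 6 h 1 DHS was called with genes extended by 25 kb. Shares of all DHS called under each of these settings are not given in this section. The counts therefore do not tell a change at the members from a change over all DHS. Trend removal for the F-tests, the average and the restriction to 2 h on were added after seeing the data. The replicate block changed no other count by over 1.5 times and, of named DHS, ended the calls given with it above. The other settings moved no count by over 1.5 times. Directions that reversed with trends removed were those of Cdkn2c_4 (-0.34), Ccnd2_3 (-0.088), Cdkn1a_3 (-0.013) and Cdkn2a_2 (-0.11) at 0 h and of Ccnd3_9 (0.18), Cdk4_2 (0.16), Cdkn1b_2 (0.089) and Cdkn2c_2 (0.076) at 24 h. After quantile normalization those of Ccnd2_3 at 0 h (-0.13) and of Ccnd3_9 (0.054), Cdk4_2 (0.014) and Cdkn2c_2 (0.028) at 24 h reversed. On leaving out libraries, differences crossed 0 at 0 h for Cdk6_3 (-0.55 to 0.065) and Cdkn2c_2 (-0.067 to 0.43), at 24 h for Ccnd3_9 (-0.12 to 0.12), Cdk6_3 (-0.44 to 0.11), Ccne1_1 (-0.041 to 0.20), Cdkn1b_2 (-0.16 to 0.13) and Cdkn2c_2 (-0.27 to 0.19), and in the change for Cdk6_3 (-0.28 to 0.39) and Cdkn2c_2 (-0.46 to 0.0026). Of these only Cdkn2c_4 had been called. The cause was not tested.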
